A study of Drosophila melanogaster with 2 samples.

Results

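A set of 9 pair-rule genes and their relatives was examined in a map of Gooseberry binding in the fly embryo. The members are hry (hairy), eve (even skipped), run (runt), ftz (fushi tarazu), odd (odd skipped), opa (odd paired), sob, drm and ftz-f1. They make up 9 of 13945 protein-coding genes on the 6 main chromosome arms. The genes were listed by name, and they were chosen with the peak positions and signals of these same data known. Their regions were selected by position, as peaks within 1 kb of a transcription start site (TSS), distal peaks whose nearest protein-coding TSS is theirs, and peaks within 50 kb. This left 36 peaks within 50 kb, of which 11 were distal peaks nearest to a member, of 2877 peaks in all. Every count below is therefore a description and carries no test.

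The map comes from chromatin immunoprecipitation and sequencing (ChIP-seq) of whole Drosophila melanogaster embryos aged 0 to 18 h. The flies carried a gsb-eGFP insertion, a fusion of gooseberry with a green fluorescent protein, and anti-GFP antibody was used for the precipitation. The antibody field of the labels names gsb instead. There was 1 group with 2 biological replicates of 1 technical replicate each, so no condition or genotype was compared. The control experiment named in the labels was not analysed here. Whole embryos over a long window of stages were used, so a signal is an average over all their cells. No cell type is labelled, so none was checked.

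Pair-rule genes divide the early embryo into segments. In the classical grouping hry, eve and run are primary genes, read out from gap gene gradients through separate stripe enhancers. The same grouping calls ftz, odd and opa secondary genes, which refine the pattern. Gooseberry is a Pax protein with a paired domain and a homeodomain, and its own gene is a segment polarity gene that acts downstream of the pair-rule genes. Most pair-rule genes are used again later, in the nervous system, the gut or other tissues.

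The authors' lists hold regions that passed a threshold on the irreproducible discovery rate (IDR). The IDR is low where a region ranks both high and alike in paired sets of reads. The combined list of both replicates is the main list, and every peak in it has an IDR of at most 0.01. Each region carries a signal set by the authors' peak caller. With its scale not given in the sources used here, signals are read only within their own list. The main-arm lists hold 2877 combined peaks, 2715 conservative joint peaks, 1864 peaks of replicate 1 and 1701 peaks of replicate 2. Longer rankings give candidate regions that mostly did not pass, 139318 of them in the combined ranking. Read depth is unknown from peak lists.

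The distal peaks that carry the result are shown here as 201 bases around each summit, on the plus strand of assembly dm6, from RefSeq. The hry, ftz-f1 and odd windows are the strongest distal peak of each of the 3 genes, and the last is the hry peak closest to the gene. Capitals mark matches, on either strand, to 10 short motifs that are named with the sequence results. The hry windows are at chr3L:8689792-8689992 and chr3L:8679423-8679623, the ftz-f1 window at chr3L:18784633-18784833, and the odd window at chr2L:3594162-3594362. The ftz-f1 window lies in an intron, and the others are intergenic.
hry: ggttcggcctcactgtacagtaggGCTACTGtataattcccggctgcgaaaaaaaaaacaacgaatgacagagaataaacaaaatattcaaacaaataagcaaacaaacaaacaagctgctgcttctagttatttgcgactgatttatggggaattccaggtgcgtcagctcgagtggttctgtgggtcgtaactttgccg
ftz-f1: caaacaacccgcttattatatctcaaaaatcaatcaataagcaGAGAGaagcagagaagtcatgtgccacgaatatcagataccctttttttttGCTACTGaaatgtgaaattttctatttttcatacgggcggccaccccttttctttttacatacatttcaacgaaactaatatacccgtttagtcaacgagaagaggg
odd: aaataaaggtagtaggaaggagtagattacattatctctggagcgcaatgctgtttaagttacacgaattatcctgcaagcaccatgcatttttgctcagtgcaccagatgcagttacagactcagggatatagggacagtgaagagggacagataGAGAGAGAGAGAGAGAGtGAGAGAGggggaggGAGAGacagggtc
hry near the gene: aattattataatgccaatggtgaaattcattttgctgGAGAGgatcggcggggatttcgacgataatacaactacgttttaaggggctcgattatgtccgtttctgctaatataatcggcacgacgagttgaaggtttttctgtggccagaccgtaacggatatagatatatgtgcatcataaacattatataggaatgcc

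None of the 9 genes had a peak within 1 kb of a TSS in the combined list, where 13.8% of all protein-coding genes had one. The count was also 0 of 9 in the conservative list and in both single-replicate lists. Distal peaks were nearest to 3 of the 9 genes, against 5.73% of all protein-coding genes. Those peaks were shared out as 6 for hry, 4 for ftz-f1 and 1 for odd. The genes eve, run, ftz, opa, sob and drm were nearest to 0 distal peaks. All 9 genes had some combined peak within 50 kb, as did 84.4% of all protein-coding genes, so that count is close to the background.

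**Figure D1:**
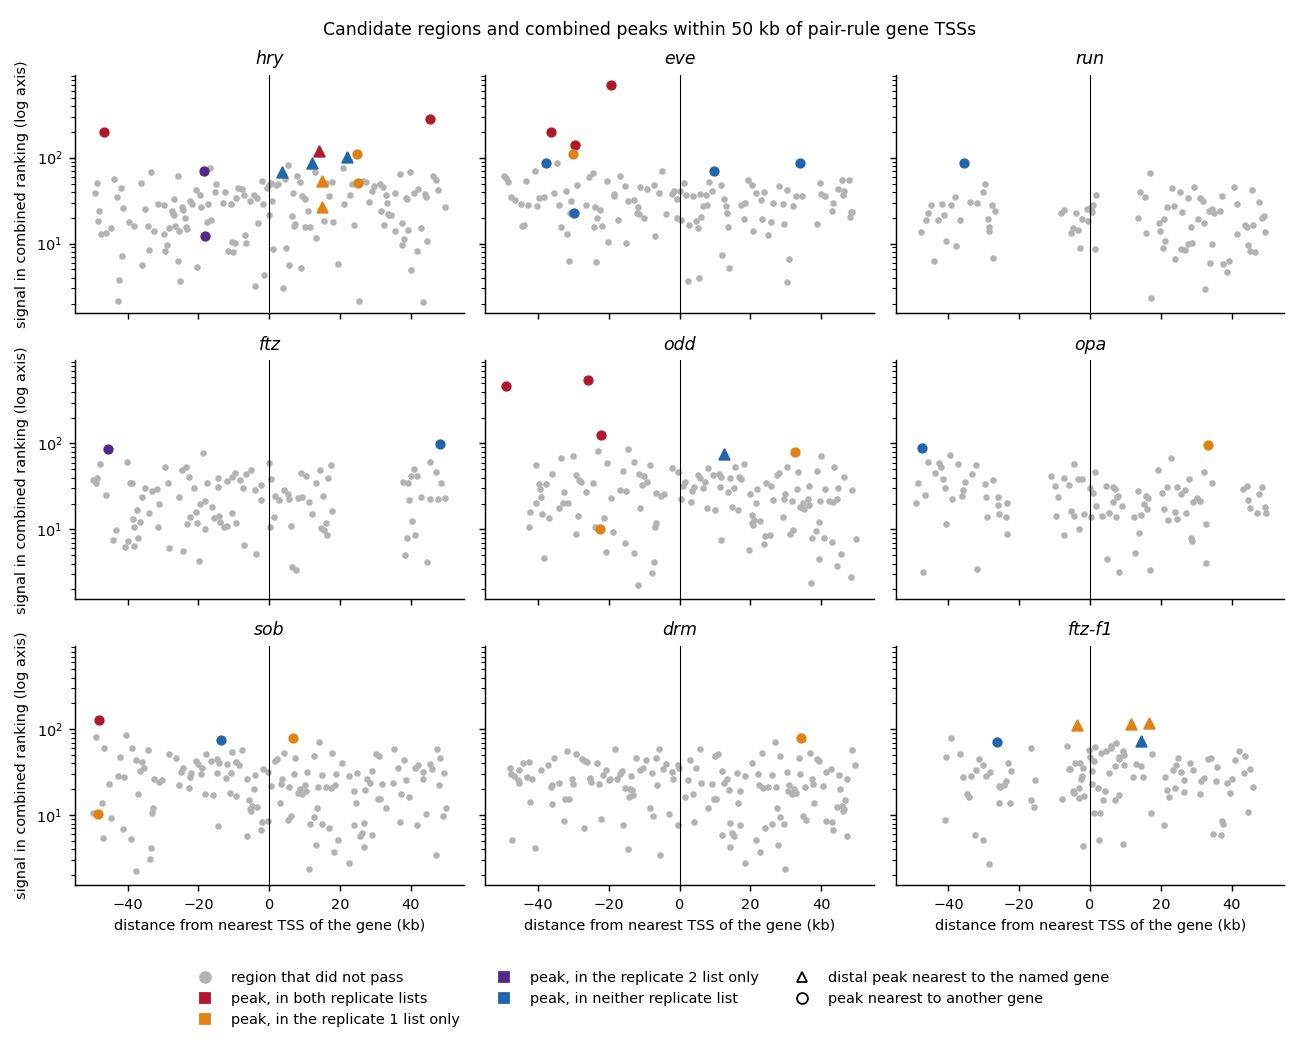
Signal in the combined ranking (log axis) against distance from the nearest TSS of each of the 9 genes in kb, within 50 kb on either side. Grey points did not pass the threshold, coloured points are combined peaks by the replicate lists that hold them, and triangles are the distal peaks nearest to the named gene: 6 at hry, 4 at ftz-f1 and 1 at odd.

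The gene hry encodes a basic helix-loop-helix repressor and lies on 3L from 8675759 to 8679253 on the plus strand (FBgn0001168). All 6 of its distal peaks lie past the end of the gene, with summits 3568 to 22028 bp downstream of the nearest hry TSS. From the start of the first peak to the end of the last they span 18824 bp. Downstream, 33 distal candidate regions were nearest to hry, and 6 of them passed. Upstream there were 21 such regions and 0 passed, with a highest signal of 53.8. Farther upstream, a pair of overlapping combined peaks lay at -18372 and -18167 bp, where Pex7 is the nearest protein-coding gene by TSS. Their combined signals were 69.2 and 12.1, and both summits were in the replicate 2 list only. Over both sides 11.1% of the distal candidate regions of hry passed, against 1.16% of distal candidate regions over all genes.

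The strongest hry peak, with its summit 13937 bp downstream, had a combined signal of 119. Its region had a signal of 68.7 in the replicate 1 ranking and 52.5 in the replicate 2 ranking. It is the 1 member peak whose summit was in both replicate lists, while 35.5% of all distal combined peaks were in both. The next strongest, at 22028 bp, had a combined signal of 101, with 44.5 in replicate 1 and 48.1 in replicate 2. The peak at 11999 bp had a combined signal of 86.2, with 45.5 in replicate 1 and 33.1 in replicate 2. Both of these peaks, like the one at 3568 bp, were in neither replicate list. The 3568 bp peak had a combined signal of 67.6, with 44.5 in replicate 1 and 33.99 in replicate 2.

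The remaining hry peaks overlap each other, with summits at 14789 and 15006 bp. Their combined signals were 53.1 and 26.5, and their IDR values were 0.00777 and 0.00776. In replicate 1 the signals were 38.9 and 13.7, and in replicate 2 both summits lay in 1 region with a signal of 15.5. Both summits were in the replicate 1 list only. Counted as 1 region, they leave hry with 5 distal peaks. Of all 6, only the 119 peak was above the median signal of the combined list, which was 112.

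The threshold falls within the hry cluster. The peak at 11999 bp is the last inside, with an IDR of 0.009996 and a score of 830, the lowest score in the list. Just outside is a region with its summit at 5447 bp, with a combined signal of 81.1, a score of 811 and an IDR of 0.0111. Its signals were 38.0 in replicate 1 and 38.1 in replicate 2, and the conservative list does hold it. A further region at 20822 bp had a combined signal of 75.2, a score of 767 and an IDR of 0.0142.

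For 5 of the 6 hry peaks the nearest TSS of any kind is that of lncRNA:CR44526, a long non-coding RNA gene between hry and SrpRbeta. The peak at 3568 bp is the exception. In addition, 6 peaks nearest to other genes lay within 50 kb of hry. They include a promoter peak of CG6511 with a signal of 285 and a peak near Zasp66, which encodes a muscle Z-disc protein, with 197. A pair of overlapping peaks with signals of 111 and 50.3 lay 24863 and 25065 bp downstream of hry, where SrpRbeta is the nearest protein-coding gene by TSS. With them, 8 peaks lay in the 39.695 kb between the end of hry and the next protein-coding gene, of which replicate 1 listed 5 and replicate 2 listed 1.

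The gene eve encodes a homeodomain repressor and lies on 2R from 9979319 to 9980795 on the plus strand (FBgn0000606). Its strongest promoter candidate region had a combined signal of 40.9. The replicate 1 region at that summit had 26.9, and no replicate 2 region held the summit. Its strongest distal candidate region, with its summit at -1667 bp, had a combined signal of 41.3, with 17.5 in replicate 1 and 30.1 in replicate 2. No promoter or distal region of eve passed in any list.

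The neighbourhood of eve was otherwise rich in signal, with 8 combined peaks within 50 kb against a median of 3 over all protein-coding genes. By that count eve was at percentile 94.3 of all genes, and hry, with 12, was at 99.7. The strongest near eve was a promoter peak of Pdrg1 at -19435 bp from the eve TSS, with a signal of 695 and a summit in both replicate lists. Mef2, which encodes a muscle transcription factor, was nearest to 5 of the 8 peaks, with signals from 22.8 to 197. The other 2 were a promoter peak of TER94, which encodes an AAA ATPase, with 70.8, and a peak near Pka-R2, a protein kinase A subunit gene, with 86.5. The median signal of all candidate regions within 50 kb of eve was 32.0, at percentile 97.9 of all genes. A high level of candidate regions around eve stood beside 0 promoter or distal peaks of its own. However, only 8 distal candidate regions were nearest to eve. It was 1 of 13146 genes with 0 distal peaks, of 13945 in all, so that count is the usual one.

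The gene run encodes a Runx DNA-binding protein and lies on X from 20690670 to 20697321 on the plus strand (FBgn0003300). It was at the other end of that scale, with a median candidate signal of 19.4, at percentile 3.35. Its strongest promoter candidate region had a combined signal of 28.0, the lowest of the 9 genes, and no region of either replicate ranking held its summit. Its strongest distal candidate region, at 16936 bp, had a combined signal of 66.8, with 30.5 in replicate 1 and 33.4 in replicate 2, and did not pass. The 1 combined peak within 50 kb was nearest to Cyp6v1, a cytochrome P450 gene, with a signal of 87.7, and neither replicate list held it.

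Among the secondary genes, ftz encodes a homeodomain protein and sits in the Antennapedia complex on 3R from 6864324 to 6866244 on the plus strand (FBgn0001077). Its promoter held the strongest promoter candidate region of the 9 genes, with its summit at -40 bp and a combined signal of 58.6. The replicate signals were 33.6 in replicate 1 and 26.5 in replicate 2, and the combined IDR was 0.0569, above the threshold. Its strongest distal candidate region, at 17512 bp, had a combined signal of 56.0, with 35.8 in replicate 1 and 16.2 in replicate 2. For the 2 combined peaks within 50 kb the nearest protein-coding TSS was that of another gene of the Hox complex. One lay 27001 bp from the Dfd TSS, with a signal of 85.7 and a summit in the replicate 2 list only. Its nearest TSS of any kind was that of tRNA:Lys-TTT-2-1, at 1057 bp. The other lay in an intron of Antp, with a signal of 98.6 and a summit in neither list. Its nearest TSS of any kind was that of lncRNA:CR43252, at 7866 bp.

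The gene opa encodes a Zic-type zinc finger protein and lies on 3R from 4852813 to 4869979 on the plus strand (FBgn0003002). Its strongest promoter candidate region had a combined signal of 30.1, with 17.0 in replicate 1 and 29.9 in replicate 2 at that summit. Its strongest distal candidate region, at -4622 bp, had a combined signal of 57.0, with 26.6 in each replicate. The 2 combined peaks within 50 kb were nearest to laf and ctrip, with signals of 96.0 and 87.7. Like ftz, opa had no region of its own that passed in any list.

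The genes odd, sob and drm encode related zinc finger proteins of the Odd-skipped family and lie in a row on 2L. The TSS of drm is 41036 bp from that of sob, and the TSS of sob is 25987 bp from that of odd, so a peak can be within 50 kb of several of them. The gene odd runs from 3604224 to 3606756 on the minus strand (FBgn0002985), sob from 3578013 to 3580769 on the minus strand (FBgn0004892), and drm from 3539247 to 3548423 on the plus strand (FBgn0024244). The family had 1 distal peak, 12494 bp downstream of the odd TSS, between odd and sob. Its combined signal was 74.6, with 44.7 in replicate 1 and 39.5 in replicate 2. It was in neither replicate list but was in the conservative list. The nearest TSS of any kind was that of lncRNA:CR43823, at 3961 bp, so by that count odd had 0 distal peaks and 2 of the 9 genes had any.

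Within 50 kb, odd had 6 combined peaks, sob 4 and drm 1. The strongest were 2 peaks at the gene for (foraging), which encodes a cGMP-dependent protein kinase, with signals of 549 and 464 and summits in both replicate lists. At their promoters the strongest candidate regions had combined signals of 46.8 at odd, 31.6 at sob and 38.6 at drm. At those summits the replicate 1 signals were 30.6 at odd, 19.3 at sob and 28.5 at drm. The replicate 2 signals there were 14.0 at odd, 13.4 at sob and 13.0 at drm. None of the 3 promoters had a region that passed.

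**Figure D2:**
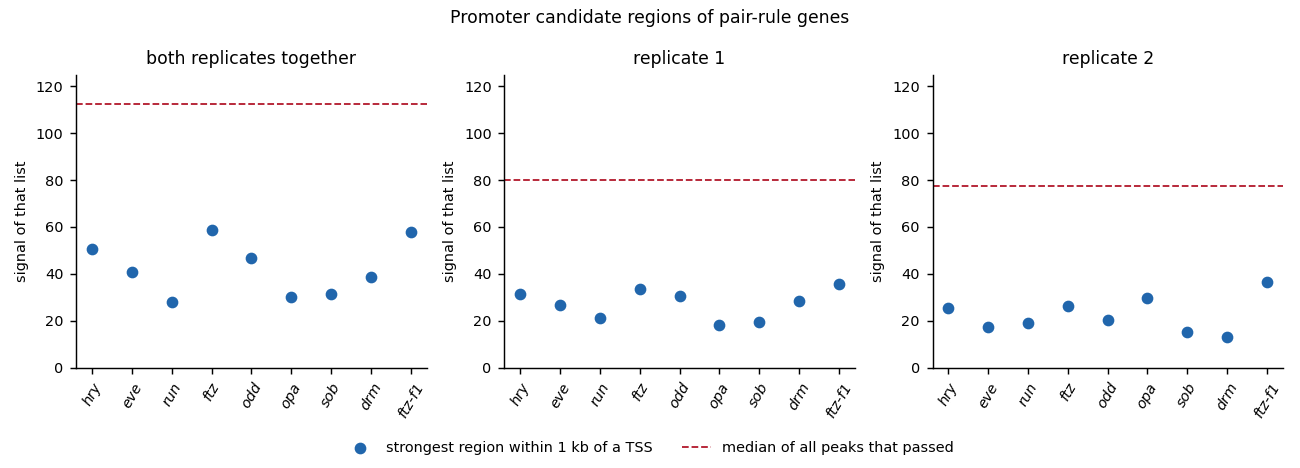
Signal of the strongest candidate region within 1 kb of a TSS for each of the 9 genes, in the combined, replicate 1 and replicate 2 rankings, each on its own scale and each taken separately, so that a gene's points can be different regions. The dashed line is the median signal of the peaks that passed in that list (112, 80.1 and 77.4), and every gene lies below it.

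The gene ftz-f1 encodes a nuclear receptor that binds DNA with Ftz as its cofactor and later acts in the ecdysone response. It lies on 3L from 18750607 to 18801309 on the minus strand (FBgn0001078) and has 3 TSSs. All 4 of its distal peaks lie in its own introns, 3 of them also in an intron of lncRNA:CR45939. Offsets here are from the nearest ftz-f1 TSS, in the direction of transcription. The strongest peak, at 16576 bp, had a combined signal of 120, with 84.8 in replicate 1 and 39.6 in replicate 2. The peak at 11475 bp had a combined signal of 114.8, with 62.9 in replicate 1 and 50.4 in replicate 2.

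The intron peak at -3789 bp had a combined signal of 114, with 63.6 in replicate 1 and 49.0 in replicate 2. These 3 peaks were above the median of the combined list, and the conservative and replicate 1 lists held all 3 while the replicate 2 list held 0. The peak at 14504 bp had a combined signal of 73.3, with 33.8 in replicate 1 and 39.0 in replicate 2, and none of those lists held it. The share of distal candidate regions of ftz-f1 that passed was 8%. Its strongest promoter candidate region had a combined signal of 57.9 and an IDR of 0.0418, with 23.8 in replicate 1 and 36.5 in replicate 2 at that summit.

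The strongest promoter region was also taken in each ranking on its own, where it can lie at another position or TSS of the same gene. Over all 9 promoters it ranged from 28.0 to 58.6 in the combined ranking. The median was 40.9 against 43.5 over all 13945 protein-coding genes. The medians were 28.5 against 23.0 in replicate 1 and 20.2 against 24.4 in replicate 2. Genes without a promoter region were kept in these gene medians, ranked lowest. They were 1416 in the combined ranking, 1813 in replicate 1 and 1327 in replicate 2. A median over only the genes with a region was not taken, and it would be no lower. The members thus lay a little above the all-gene median in one replicate and a little below it in the other.

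**Figure D3:**
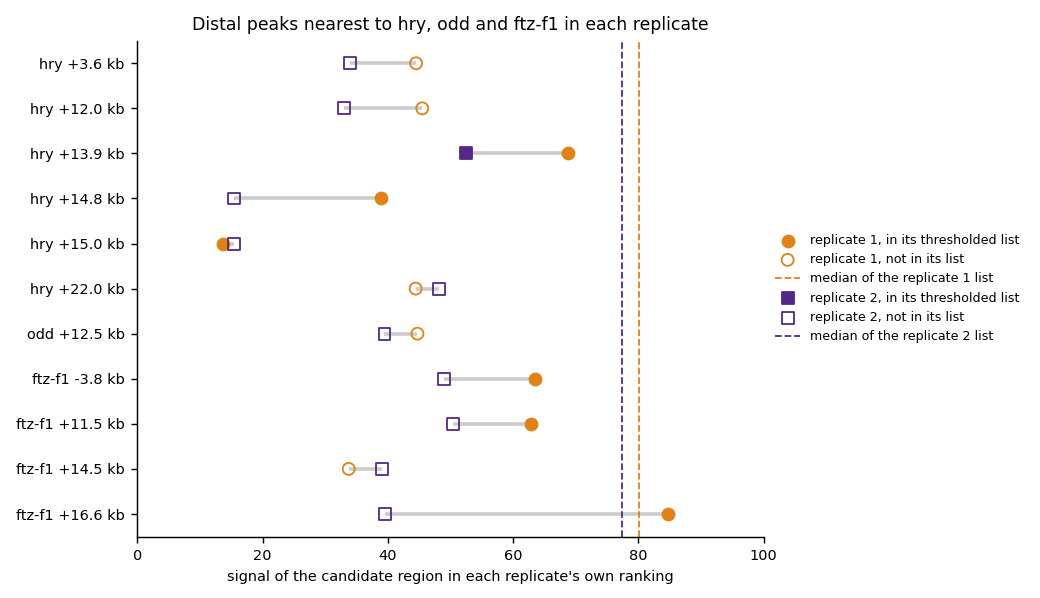
Signal of each of the 11 distal peaks in the replicate 1 and replicate 2 rankings, each with its own scale, labelled by gene and distance from the TSS in kb. Filled symbols mark summits inside a peak of that replicate's thresholded list (6 for replicate 1 and 1 for replicate 2), and dashed lines are the median signal of each list.

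The distal peaks rested unevenly on the replicates. Of the 11, the lists of both replicates held 1, that of replicate 1 alone held 5, that of replicate 2 alone held 0, and 5 were in neither, and 7 were in the conservative list. The 5 in replicate 1 alone include both peaks of the overlapping hry pair. Over all 1169 distal peaks, 415 were in both lists, 213 in that of replicate 1 alone, 124 in that of replicate 2 alone and 417 in neither. Replicate 1 listed 53.7% of the 1169, replicate 2 listed 46.1% and the conservative list held 78.4%. Each replicate list has its own scale, so its signals are set beside those over all distal peaks. The signal was higher in replicate 1 at 8 of the 11 peaks, with a median ratio of 1.30, against 646 of 1084 distal peaks with both values and a median ratio of 1.09. From the replicate 1 list alone, hry and ftz-f1 had 3 distal peaks each, where 3.56% of genes had any. From the replicate 2 list alone, hry had 1 and ftz-f1 had 0, where 3.26% of genes had any.

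The member peaks were of moderate signal. They ran from 26.5 to 120, with a median of 86.2 against 103 over all distal peaks. Of the 11, 4 were above the median of the combined list, as were 490 of all 1169 distal peaks. Of the 36 peaks within 50 kb, 4 had signals over 200, and all 4 were nearest to other genes (Pdrg1, for and CG6511). In all, 25 of the 36 were nearest to other genes, and 9 of the 36 were in both replicate lists, against 1226 of 2877 combined peaks.

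Set among all protein-coding genes, hry was 1 of 11 genes with at least 6 distal peaks and ftz-f1 was 1 of 39 with at least 4. These genes have long territories, meaning the DNA for which theirs is the nearest protein-coding TSS. The territory was 35.475 kb for hry and 54.171 kb for ftz-f1, where the median gene has 4.253 kb. Per 100 kb of territory this gave 16.9 distal peaks for hry, 7.38 for ftz-f1 and 4.36 for the 9 genes together, against 0.873 over all genes. Territories were counted whole, with the bases within 1 kb of a TSS, where no distal peak can lie. Such bases take up more of a short territory, so rates of long and short territories are not strictly alike. The genes ftz, with 41.43 kb, and run, with 31.333 kb, also had long territories and had 0 distal peaks.

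**Figure D4:**
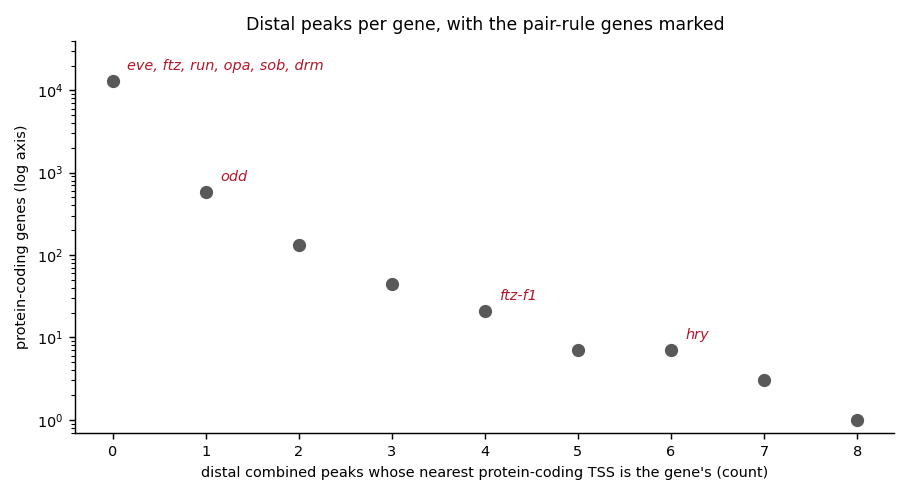
Number of protein-coding genes (log axis) against the number of distal combined peaks whose nearest protein-coding TSS is theirs. The 9 genes are written beside the point that holds them, with hry at 6, ftz-f1 at 4, odd at 1 and the other 6 at 0.

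Besides hry, 3 genes had 6 distal peaks and no promoter peak: cv-c, Hr4 and CG43245. The summed distal signal was 454 for hry, lower than the 699 for cv-c, 995 for Hr4 and 1001 for CG43245. Of the 6 peaks, 1 at hry was in both replicate lists, against 2 at cv-c, 4 at Hr4 and 4 at CG43245.

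Some stretches near the members held no candidate region at all, so a weak signal there could not be read. In the combined ranking a stretch of over 10 kb reached within 50 kb of a TSS at ftz, run, opa and ftz-f1, 4 of the 9 genes, as it did at 45.6% of all protein-coding genes. At ftz it spanned 19.8 kb in the combined ranking, 19.8 kb in replicate 1 and 11.6 kb in replicate 2. At run the longest was 18.5 kb in the combined ranking and 22.3 kb in replicate 2 but 6.23 kb in replicate 1. At opa it was 12.03 kb in the combined ranking and 23.0 kb in replicate 1 but 8.25 kb in replicate 2. At ftz-f1 it was 20.9 kb in the combined ranking, 30.8 kb in replicate 1 and 12.9 kb in replicate 2. The longest near hry was 1.72 kb in the combined ranking.

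A list of 24 other genes of the pair-rule network was counted in the same way. Of them, 8 had a promoter peak, where 13.8% of all protein-coding genes had one. A distal peak was nearest to 2 of the 24, close to the 5.73% over all genes. By group, 3 of 11 upstream regulators had a promoter peak, as did both co-repressors, both paralogues of members, 1 of 4 segment targets, 0 of 2 Runx partners and 0 of the 3 other pair-rule genes. That segment target was gsb itself, the gene of the fusion, with a signal of 87.6. It was also 1 of the 2 genes with a distal peak, with 100.3. Of the replicate lists, only that of replicate 2 had a distal peak at gsb. The highest signals were 322 at gro, the co-repressor recruited by Hairy, 236 at bowl, an odd paralogue, and 231 at Stat92E, the JAK/STAT transcription factor. CtBP, another co-repressor, had 146, and bcd, the anterior maternal determinant, had 120. The pair-rule gene slp2, a forkhead factor, had a distal peak with 191 in both replicate lists.

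In the windows of 201 bases around the 11 summits, 10 motifs were searched on both strands. CAGTAGC, a core bound by Odd-family proteins, was in 2 of 11 windows, the strongest hry peak and the strongest ftz-f1 peak, against 1.71% of all distal windows. In the windows printed above it starts at position -76 from the hry summit and -6 from the ftz-f1 summit. GAGAG, the GAGA factor core, was in 4 of 11 against 26.5%, with overlapping copies in a repeat at the odd peak. CAGGTA, the Zelda core, was in 1 of 11, at the hry peak 11999 bp downstream, against 4.53%.

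The other 7 motifs were in 0 of the 11 windows. Over all distal windows the paired domain core GTCACGC was in 0.513%, the homeodomain core TAATTA in 13.8%, and the Hairy-family boxes CACGTG in 1.54% and CACGCG in 4.62%. The Ftz-F1 monomer site AAGGTCA was in 1.37%, the Runx core AACCACA in 3.08% and the DREF core TATCGATA in 0.342%. These are matches of letters only. The base composition of the windows was 28.9% to 61.2% GC, with a median of 41.8% against 38.3% over all distal windows.

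A further 10 hexamers that led among all summits in an earlier analysis of these data were counted in the same windows. At least 1 of them was in 6 of the 11 windows, against 59.2% of all distal windows. ACAGTG was in 2 of 11, at hry and odd, against 21.2%. AGGGTA was in 2 of 11, both at ftz-f1, against 8.90%, and ACTGTA in 2 of 11, at hry and ftz-f1, against 15.7%. ATACCC was in 2 of 11, at hry and ftz-f1, against 10.9%, and ACCCTA in 1 of 11, at ftz-f1, against 4.79%. The other 5 were in 0 of the 11 windows. Over all distal windows ACACTG was in 16.1%, ACTGTG in 14.5%, AGTGTA in 15.7%, CGATAG in 4.28% and ACTAGT in 2.99%. The strongest hry peak held ACAGTG and also ACTGTA, close to its CAGTAGC match in the printed window.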

How the data were processed

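The deposited files are peak lists on dm6, per the labels, 1 thresholded and 1 ranked list for each of 2 biological replicates and joint lists for both. The signal of each region, its score, capped at 1000, and the −log10 of its global IDR in the ranked lists are the authors' deposited values. The aligner, the peak caller and any use of a control: not given in the sources used here. The second joint ranking was not used.

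Genes and TSSs came from Ensembl release 115, without TSSs of transposable elements, and sequence from RefSeq Release 6. RefSeq places all 9 genes at the same coordinates. Summits on the 6 main arms were placed with Python 3.11.15, numpy 2.4.6 and pandas 2.3.3, and figures drawn with matplotlib 3.10.9. A summit within 1 kb of any TSS is a promoter peak and any other is distal, given to the nearest protein-coding TSS. A replicate's signal at a combined peak is that of its strongest ranked region holding the combined summit. A combined peak is in a replicate list when its summit lies in a peak of that list. The placement was tested on simulated data.

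Members, gene lists, motifs and hexamers were chosen with earlier results of these data known. All members are named. Of the 24 network genes, 6 are named, those with the highest signal of a promoter or nearest distal peak, besides gsb as the gene of the fusion. Genes like hry are those without a promoter peak and with as many distal peaks, up to 5 of them, ordered by the log2 difference of summed signal.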

Additional observations from a re-analysis of the deposited data

How the results depend on the processing

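The count of members with a promoter peak was also 0 in the conservative list, in each replicate list and with a window of 2 kb. The stricter IDR, the limit on signal and a window of 500 bp also gave 0. Those limits only take peaks away, so they could not give another count. The 11 distal peaks nearest to a member were 8 in the conservative list, 4 at a signal at or above the list median, 0 at an IDR of at most 0.001, and 5 when the nearest TSS of any biotype was used. They were 9 with distal set at over 2 kb, and 1 to 6 when either replicate was left out. The 3 members with a distal peak were 0 at an IDR of at most 0.001 and 1 to 2 when either replicate was left out. The 36 peaks within 50 kb were 12 at or above the median, 7 at the stricter IDR, 19 within 25 kb, 62 within 100 kb, and 13 to 19 when either replicate was left out. The cause of these differences was not tested, except that stricter limits and smaller windows keep fewer peaks by construction. With overlapping peaks merged, an alternative chosen after seeing the data, 10 distal peaks and 30 peaks within 50 kb were left. Counting TSSs of transposable elements, also chosen then, kept 11. Of the motifs, TAATTA was in 2 of the 11 whole peaks against 0 of the summit windows. No paired analysis was possible because there is 1 group. Depth is unknown from peak lists, so a region below the threshold is not shown to be unbound.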
